A study of Mus musculus with 15 samples.

Results

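The 10 genes described here were taken from a table of read counts for 18804 mouse genes. They were chosen from earlier results of the same data, as genes with large increases that appeared only after 12 days at 31°C, together with mesothelial or epithelial companions of those genes. Msln, AW551984, Sprr1a, Aif1l and F2rl1 led in increase among called genes with separate groups that averaged 1 CPM or more (terms given below). Bnc1, Krt8, Krt18, Krt19 and Slpi were added as companions, although Bnc1 rose more (log2 3.75) than Aif1l (3.60) or F2rl1 (3.46). The levels therefore served as the basis of the choice, and the values of the 10 genes at day 1 and day 12 are given as a description with no p-value. Of the 10, 6 were higher at day 12, and not all of these rose at day 12 only. Krt8 and Slpi were lower at day 12 than at day 0, Krt18 and Krt19 lay at the level of day 0, and AW551984, among the 6, was already higher at day 1. The genes are therefore called the Msln set below, after the gene with the largest increase.

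RNA was sequenced from white adipocytes that had been differentiated in culture from mesenchymal stem cells of C57BL/6J mice, which the study isolated from ears. All cells received methylisobutylxanthine, dexamethasone, insulin and a thiazolidinedione, and every group was harvested 16 days after induction. The labels name troglitazone, and the methods name troglitazone and rosiglitazone in different sections. The day 0 group stayed at 37°C throughout, cells of the day 1 group entered 31°C on day 15 and those of the day 12 group on day 4, so that the cells had the same age at harvest and differed in the time spent at 31°C. Each group had 5 libraries, 15 in all, and no group carried a transgene or deletion. The sources used here do not say whether the 5 libraries came from separate mice or dishes, so the errors measure the spread between libraries. A cultured population of this kind can hold cells that did not become adipocytes, and in bulk RNA fewer cells of a type and less RNA per cell cannot be told apart.

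Mesothelial cells form the sheet that lines the body cavities. They derive from mesoderm, yet they carry keratins and junctions as epithelial cells do, and mesothelin, encoded by Msln, is their best known surface protein. Simple epithelia and mesothelium build their filaments from pairs of type II and type I keratins, of which Krt8 with Krt18 or Krt19 is the typical set, while stratified epithelia such as the epidermis use other pairs and seal their outer layer with cross-linked small proline-rich proteins such as the product of Sprr1a. White adipocytes and fibroblasts mainly use vimentin in place of keratins.

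The promoter sequences of Sprr1a and Bnc1 are shown because these genes were both more than 10 times higher at day 12 than at day 0, and yet their upstream regions differ in composition. Sequences came from a set of RefSeq upstream regions (GRCm38.p6). The set used here held an entry for 7 of the 10 genes and none for Msln, F2rl1 and Krt19. Each run is the 250 bases before the annotated start on the strand of the gene, read 5′ to 3′. Capitals mark matches to the AP-1 motif TGANTCA and the TATA motif TATAAA, searched on both strands. The Sprr1a window is chr3:92485882-92486131 and the Bnc1 window is chr7:81992300-81992549, both on the minus strand.
Sprr1a: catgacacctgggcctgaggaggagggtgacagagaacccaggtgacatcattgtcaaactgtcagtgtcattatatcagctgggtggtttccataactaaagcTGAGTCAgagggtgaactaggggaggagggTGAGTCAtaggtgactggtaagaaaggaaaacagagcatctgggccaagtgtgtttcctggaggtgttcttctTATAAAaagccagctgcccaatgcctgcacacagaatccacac
Bnc1: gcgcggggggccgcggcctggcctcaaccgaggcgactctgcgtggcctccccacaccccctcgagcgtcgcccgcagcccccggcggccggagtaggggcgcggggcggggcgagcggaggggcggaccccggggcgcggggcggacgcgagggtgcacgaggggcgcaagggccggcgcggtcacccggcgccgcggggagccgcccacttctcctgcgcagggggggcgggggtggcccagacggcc
The Sprr1a window held 2 AP-1 matches and 1 TATA match, had a GC content of 49.6% and contained no CpG. Over 32851 windows of the same length in the RefSeq table, 6.75% held an AP-1 match, 12.4% held a TATA match, and the median GC content was 52.4%. The Bnc1 window held neither motif, was 83.6% GC and contained 39 CpG. Among the other members, the Aif1l window was also rich in GC (69.6%, with 27 CpG), whereas those of Krt8 (58%), Krt18 (60.4%) and Slpi (42%) were less so, and none of these 4 held an AP-1 or TATA match. AW551984 had 3 annotated starts and so 3 windows, of 42.8%, 52.4% and 40.4% GC, of which the window of 52.4% GC held 1 AP-1 match and none held a TATA match. The TEAD motif GGAATG was found in none of the 9 windows of these 7 genes and in 12.6% of all windows. A match of this kind describes letters and no binding was measured.

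The library totals ranged from 64648178 to 133270973 counts, and levels are given as CPM, the count relative to the size of the library after scaling with the TMM method of edgeR. A count of 0 allows up to 3 counts, or between 0.0238 and 0.0428 CPM depending on the library, for counting error alone. Of the 18804 genes, 14293 had enough counts to be tested, including all 10 members of the Msln set. A gene was called when its adjusted p in the quasi-likelihood test of edgeR (Benjamini-Hochberg, over all tested genes) was under 0.05 and its fold change over 1.5. All 10 adipocyte markers checked were detected, from Lpl at 1950 CPM to Retn at 0.272 CPM at day 0. At day 12 Fabp4 and Retn had risen and Adipoq, Pparg, Cidec and Lep had fallen, of which Pparg and Lep were no longer past the fold threshold when libraries were scaled by total counts, where Lipe was called higher (0.70). Pparg also lost its call without day 12 replicate 1 (-0.58) or replicate 4 (-0.58). Both comparisons with day 0 share the same 5 control libraries.

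By this call, 6 members of the Msln set were higher at day 12 than at day 0, where 13.0% of all tested genes were called higher. Slpi was called lower, against 16.2% of all tested genes, and Krt8, Krt18 and Krt19 were called in neither direction. At day 1 only AW551984 was called higher and only Krt19 lower, with 7.71% and 13.4% of all tested genes called in these directions. Between day 1 and day 12, 7 members were called higher (the 6 above and Krt19) and Krt8 was called lower, against 10.6% and 8.53% of all tested genes. By overlap alone, the same 6 members had every day 12 library above every day 0 library, as had 33.0% of all tested genes, and Krt8 and Slpi had every day 12 library below, as had 31.7%. At day 1 the libraries of AW551984 and Krt8 were all above those of day 0 (28.6% of all tested genes) and those of Krt19 all below (28.8%). These counts follow from the choice of the genes and carry no weight of their own.

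**Figure D1:**
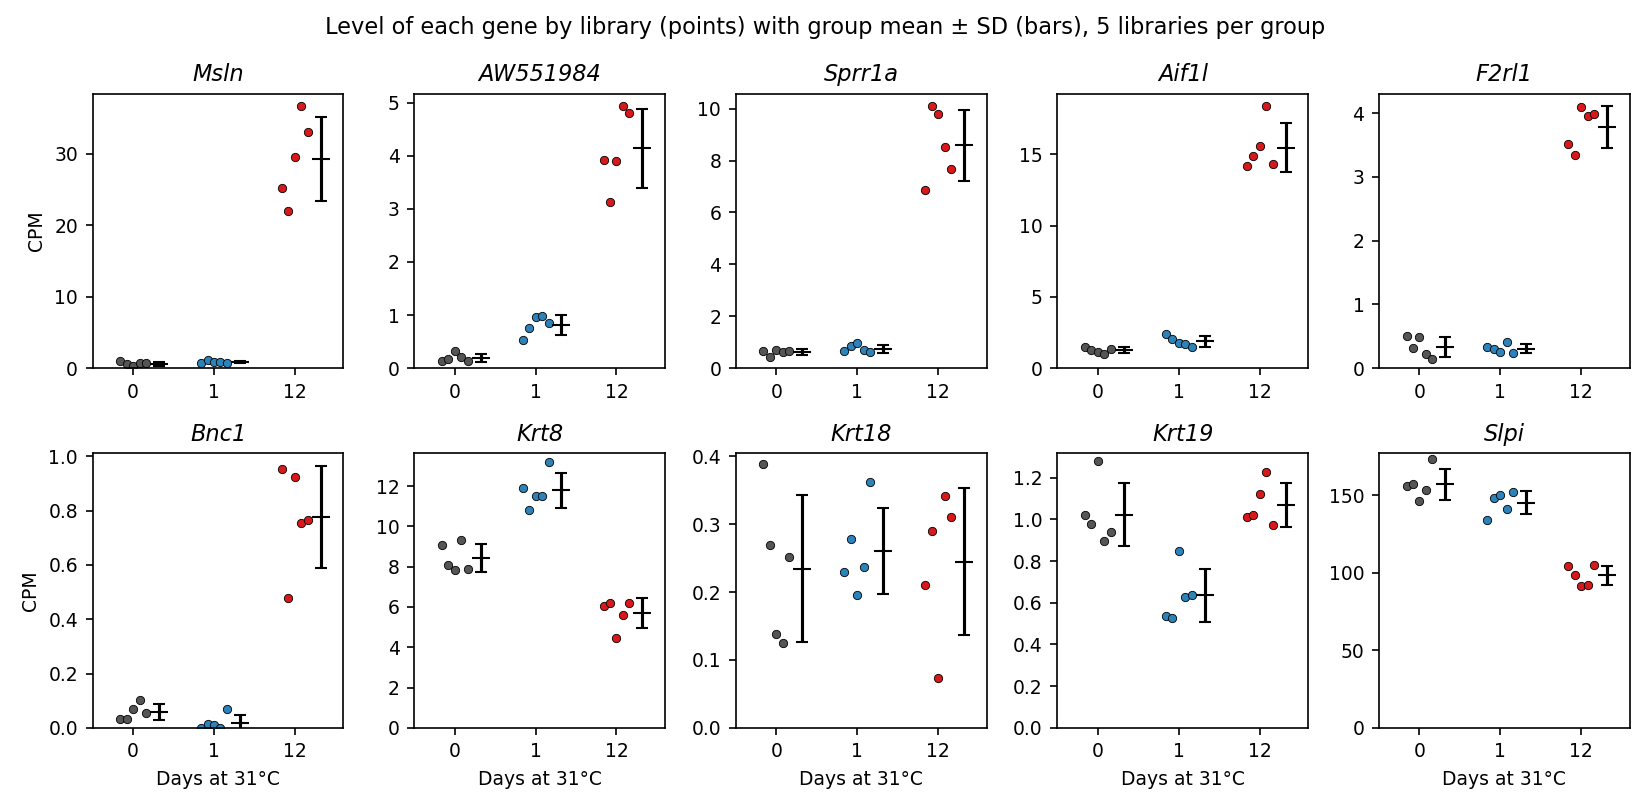
Level of each of the 10 genes in CPM (y axis, linear, from 0) by days at 31°C (x axis), with 1 point per library and the mean ± SD of 5 libraries beside them. In the panels for Msln, AW551984, Sprr1a, Aif1l, F2rl1 and Bnc1 every day 12 point lies above every other point, whereas Krt8 peaks at day 1, Krt19 dips at day 1, Krt18 overlaps throughout and Slpi is lowest at day 12.

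Msln (chr17:25748613-25754378, minus strand) encodes mesothelin, a membrane-anchored glycoprotein of mesothelial cells. Its level at day 0 was 0.968, 0.528, 0.275, 0.694 and 0.677 CPM in replicates 1 to 5. At day 1 it was 0.755, 1.12, 0.826, 0.921 and 0.725 CPM, and at day 12 it was 25.2, 22, 29.6, 36.6 and 33.0 CPM. The lowest library of day 12 was thus far above the highest library of the other groups, and the day 0 and day 1 libraries overlapped. The group means were 0.628 ± 0.253, 0.870 ± 0.161 and 29.3 ± 5.88 CPM (SD, n = 5). The log2 fold change was 5.51 ± 0.17 (SE) at day 12, or 45.6-fold, and 0.42 ± 0.25 at day 1. Only 4 of the 14293 tested genes had a larger log2 increase at day 12. Without day 0 replicate 1, the library with the highest Msln at day 0, the day 1 difference was 0.68 and passed the call.

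Bnc1 (chr7:81966672-81992292, minus strand) encodes basonuclin 1, a zinc-finger transcription factor of keratinocytes, germ cells and mesothelium. At day 0 its level was 0.0317, 0.0323, 0.0688, 0.102 and 0.0546 CPM, which stands for only 3 to 9 counts per library. The day 1 libraries had 0, 0.0139, 0.0109, 0 and 0.0686 CPM, or 9 counts in all 5 libraries together, of which 7 were in replicate 5. The libraries of replicates 1 and 4, with 0 counts, allow up to 0.0384 and 0.0419 CPM. Bnc1 passed the filter on low counts through the day 12 libraries alone, where it reached 0.952, 0.479, 0.923, 0.756 and 0.765 CPM on 38 to 95 counts. The groups did not overlap between day 12 and either other group, and the log2 difference was 3.75 ± 0.42 against day 0. At day 1 the log2 difference was -1.35 ± 0.68, with a 95% interval from -2.69 to -0.02, and the value moved to -2.90 without day 1 replicate 5, which then passed the call.

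Sprr1a (chr3:92483952-92485895, minus strand) encodes a small proline-rich protein that is cross-linked into the cornified envelope of squamous cells, and it is also known to be induced in injured neurons. Its level was 0.651, 0.420, 0.698, 0.637 and 0.666 CPM at day 0. The day 1 values of 0.653, 0.847, 0.957, 0.684 and 0.607 CPM overlapped with these. At day 12 the libraries held 6.85, 10.1, 9.78, 8.54 and 7.66 CPM, all above the other groups, for a log2 fold change of 3.80 ± 0.14 (13.9-fold) against day 0 and 0.28 ± 0.17 for day 1 against day 0. Other small proline-rich and cornified envelope genes were barely detected: of 16 in the table, 14 had too few counts to be tested, with at most 26 counts in any library. The remaining pair, Tgm1 (transglutaminase 1, the cross-linking enzyme) and Ivl (involucrin), had log2 differences of -0.57 and 0.23 at day 12 and were not called, although Tgm1 was called lower without day 0 replicate 4 (-0.65) or day 12 replicate 1 (-0.63). Among the genes considered as neighbours, Ivl is the nearest to Sprr1a on the side of higher coordinates, 85006 bases away.

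AW551984 (chr9:39587396-39604403, minus strand) is a protein-coding gene still known by a clone name. It stood at 0.143, 0.172, 0.325, 0.205 and 0.131 CPM at day 0. By day 1 it was at 0.525, 0.764, 0.957, 0.976 and 0.852 CPM, and at day 12 at 3.92, 3.12, 3.90, 4.93 and 4.81 CPM. This was the only member whose libraries were ordered upward without overlap from day 0 to day 1 to day 12. The log2 fold change was 2.06 ± 0.24 at day 1 and 4.40 ± 0.21 at day 12 against day 0. From day 1 to day 12 it was 2.34 ± 0.18. The description of an increase confined to day 12 therefore did not hold for AW551984.

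Aif1l (chr2:31950139-31973442, plus strand) encodes an actin-binding protein related to allograft inflammatory factor 1. It was at 1.52, 1.25, 1.17, 1.00 and 1.38 CPM at day 0. The day 1 values were 2.43, 2.03, 1.78, 1.67 and 1.51 CPM, and those of day 12 were 14.2, 14.9, 15.6, 18.4 and 14.3 CPM. Day 12 lay apart from both other groups, whereas the lowest day 1 library (1.51 CPM) was just under the highest day 0 library (1.52 CPM). The log2 fold change was 3.60 ± 0.11 at day 12 and 0.56 ± 0.13 at day 1, the latter 1.47-fold and so close to the threshold of 1.5 that it passed in 5 of 22 alternative settings, among them those that left out replicate 1 of day 0 or either replicate 4 or 5 of day 1. Its related gene Aif1, a macrophage gene, had at most 6 counts in any library. Gm13442 on the opposite strand covers 4.17% of the exon bases of Aif1l, and the strand setting of the counting was not stated.

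F2rl1 (chr13:95511732-95525227, minus strand) encodes PAR2, a G protein-coupled receptor that trypsin-like proteases switch on by cutting its extracellular end. Its level was 0.500, 0.312, 0.482, 0.227 and 0.142 CPM at day 0 and 0.333, 0.306, 0.261, 0.405 and 0.235 CPM at day 1. These groups overlapped, and all day 12 libraries, at 3.52, 3.35, 4.09, 3.96 and 3.99 CPM, were above them. The log2 fold change was 3.46 ± 0.21 at day 12 and -0.17 ± 0.26 at day 1, and the sign at day 1 turned (0.04) without day 0 replicate 1. F2r, the thrombin receptor PAR1, lies 76575 bases away on the same strand and rose from 52.3 ± 2.48 to 94.4 ± 2.48 CPM by day 12 (log2 fold change 0.85 ± 0.03, adjusted p = 5.64e-17, edgeR). F2rl3, the gene of PAR4, had a log2 difference of -1.12 at day 12 with adjusted p = 0.0576 (edgeR) on at most 21 counts per library, and it was called lower without day 0 replicate 1, 2 or 5 or day 12 replicate 2 (between -1.24 and -1.31).

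Tissue factor (F3) and proteases tied to PAR2 or to SLPI were examined as a list of 13, of which 10 were in the table and 5 were tested. None rose and 3 fell at day 12. F3, the tissue factor that starts coagulation, fell from 123 ± 4.21 to 62.4 ± 1.98 CPM (log2 fold change -0.98 ± 0.03, adjusted p = 4.92e-19, edgeR). St14, the membrane protease matriptase, fell from 1.29 ± 0.23 CPM at day 0 to 0.378 ± 0.144 at day 1 and 0.0505 ± 0.0366 at day 12, on at most 201 counts per library. Prtn3, a protease of myeloid cells, fell from 3.72 ± 0.38 to 2.26 ± 0.29 CPM (log2 fold change -0.72 ± 0.13), a call that was lost under scaling by total counts (-0.53). The summed level of the list was 121 to 133 CPM at day 0, 112 to 122 CPM at day 1 and 64.2 to 68.6 CPM at day 12. Most of it came from F3, so the sum describes F3 more than the proteases. Among the genes not tested, Ctsg had at most 1 count in any library, F7 2, F10 6, Tmprss2 15 and Elane 25.

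Krt8 (chr15:101996698-102004482, minus strand), the type II keratin of simple epithelia, moved against the label. Its level was 9.06, 8.09, 7.84, 9.31 and 7.89 CPM at day 0. At day 1 it was 11.9, 10.8, 11.5, 11.5 and 13.2 CPM, and at day 12 it was 6.07, 6.22, 4.47, 5.62 and 6.19 CPM. The 3 groups did not overlap: Krt8 was highest after 1 day and lowest after 12 days. The log2 differences were 0.48 ± 0.08 at day 1 (1.40-fold), -0.56 ± 0.08 at day 12 (0.678-fold) and -1.04 ± 0.08 between day 1 and day 12. Gm36026 on the opposite strand covers 5.16% of its exon bases.

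Krt18 (chr15:102028180-102032027, plus strand), the type I partner of Krt8, lies 23697 bases from Krt8 with no coding gene between them. It had 0.389, 0.269, 0.138, 0.125 and 0.251 CPM at day 0, 0.230, 0.278, 0.196, 0.237 and 0.362 CPM at day 1 and 0.210, 0.290, 0.0729, 0.342 and 0.310 CPM at day 12. All 3 groups overlapped, on 6 to 49 counts per library. The log2 difference at day 12 was 0.04 ± 0.37, with a 95% interval from -0.70 to 0.77, and differences within that interval were not detectable at this depth. Leaving out single libraries moved this value from -0.11 to 0.32.

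Krt19 (chr11:100140810-100148665, minus strand), a type I keratin of ducts and mesothelium, was at 1.02, 0.980, 1.28, 0.899 and 0.939 CPM at day 0. It was at 0.538, 0.528, 0.848, 0.628 and 0.637 CPM at day 1 and at 1.01, 1.02, 1.12, 1.23 and 0.972 CPM at day 12. Every day 1 library was below every library of the other groups, and day 0 and day 12 overlapped. The log2 difference was -0.68 ± 0.18 at day 1 and 0.06 ± 0.17 at day 12 (95% interval from -0.27 to 0.39), and from day 1 to day 12 it was 0.74 ± 0.18. Krt8 and Krt19 thus moved in opposite directions at both steps, up and then down for Krt8, down and then up for Krt19.

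Slpi (chr2:164354070-164389095, minus strand) encodes a secreted inhibitor of neutrophil elastase and related serine proteases. It was the most abundant transcript of the set, at 156, 157, 146, 153 and 173 CPM at day 0. At day 1 the libraries had 134, 148, 150, 141 and 152 CPM, which overlapped with day 0. The day 12 libraries had 104, 98.5, 91.5, 92.3 and 105 CPM, all below the others. The log2 difference was -0.67 ± 0.04 at day 12 and -0.11 ± 0.04 at day 1. Under scaling by total counts, which put the median log2 difference of all genes at day 12 at 0.21 in place of 0.01, the day 12 value was -0.48 and no longer past the fold threshold.

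**Figure D2:**
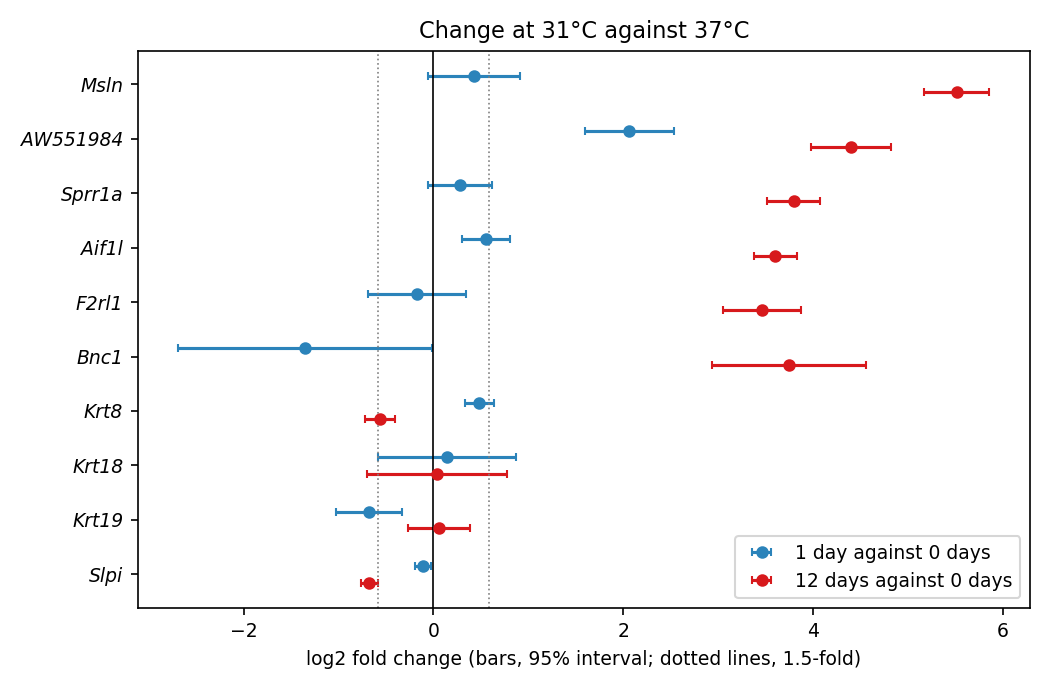
Log2 fold change of each of the 10 genes (x axis) at day 1 and at day 12 against day 0, with 95% intervals from the standard error as bars and dotted lines at a 1.5-fold change. The day 12 points of 6 genes lie between 3.46 and 5.51, and those of Krt8, Krt18, Krt19 and Slpi lie between -0.67 and 0.06.

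Levels per kilobase of annotated exon allow the genes to be compared with each other. On this scale Slpi was highest in every group, at 133 ± 8.41, 123 ± 6.28 and 83.3 ± 5.35 CPM per kilobase at days 0, 1 and 12. Krt8 came next at day 0 (4.31 ± 0.35) and day 1 (6.02 ± 0.45). At day 12 Sprr1a (10.7 ± 1.71) and Msln (9.56 ± 1.91) stood above Aif1l (3.84 ± 0.43) and Krt8 (2.92 ± 0.38), and the libraries of Sprr1a and Msln overlapped. F2rl1 (1.38 ± 0.12), AW551984 (0.680 ± 0.122), Krt19 (0.577 ± 0.056), Krt18 (0.170 ± 0.075) and Bnc1 (0.167 ± 0.041) followed, and the ranges of AW551984 and Krt19, and of Krt18 and Bnc1, overlapped. Krt8 was in excess over its type I partners, by a ratio of means of 26.4, 33.3 and 17.2 to Krt18 and of 7.81, 17.6 and 5.06 to Krt19 at days 0, 1 and 12. An annotated pseudogene of Krt8 was not analysed here, and reads that match both could have been counted for either.

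**Figure D3:**
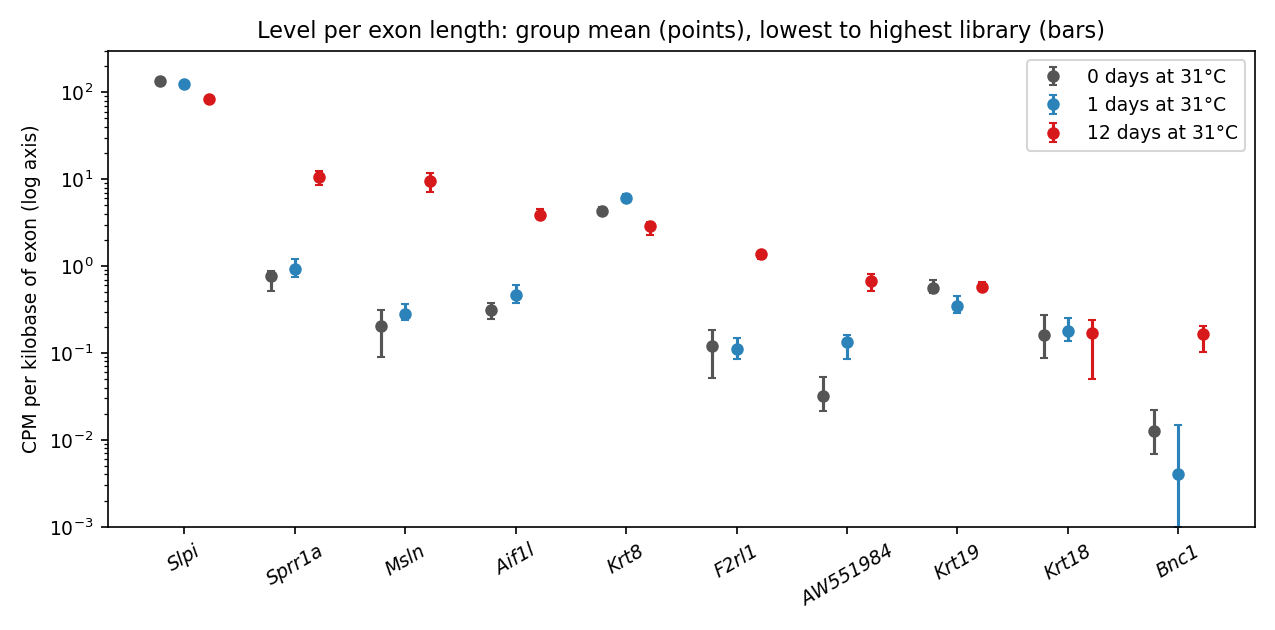
Mean level per exon length of each gene in CPM per kilobase (y axis, log scale) at 0, 1 and 12 days at 31°C, with bars from the lowest to the highest of 5 libraries. The order of the genes changes with time: Slpi stays on top between 77.5 and 147, Sprr1a and Msln move from at most 1.19 to between 7.18 and 12.5 at day 12, and the bar of Bnc1 at day 1 runs to 0, which a log axis cannot show.

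The spread between libraries exceeded counting error for the abundant members. At day 12 the coefficient of variation was 20.1% for Msln against 2% expected from counting, 16.1% against 3.71% for Sprr1a, and 8.62% against 5.56% for F2rl1. For Krt19 it was 9.57% against 10.5%, so counting alone gave a spread of this size. At day 0 the low members were the most variable, with 50.6% for Bnc1, 47.1% for F2rl1, 46.1% for Krt18 and 40.3% for Msln, against 42.3%, 17%, 20.2% and 12.5% from counting, so the spread of Bnc1 was close to counting error. Day 0 replicate 1 had the highest level of Msln, F2rl1, Aif1l and Krt18 within its group. After the group means were removed, the correlation of Msln with AW551984, Sprr1a, Aif1l, F2rl1 and Bnc1 over 15 libraries ranged from -0.34 to 0.34, as a description.

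**Figure D4:**
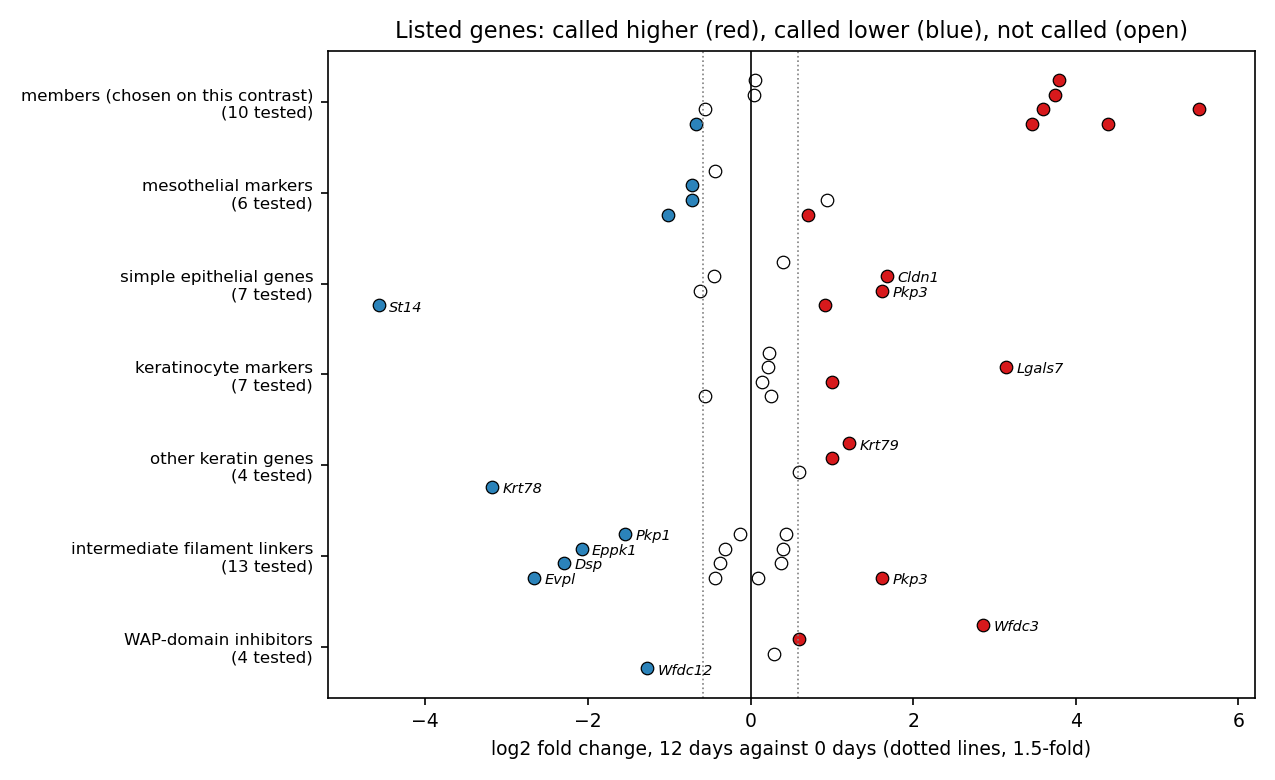
Log2 fold change at day 12 against day 0 (x axis) of the 10 genes and of the tested genes of 6 related lists, with filled points for genes called higher (red) or lower (blue), open points for genes not called and dotted lines at a 1.5-fold change. The 6 leading members lie to the right of all listed genes, and in the mesothelial list 3 of 6 tested genes lie left of the lower threshold.

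Other mesothelial markers moved in both directions. Of 13 listed, 12 were in the table and 6 were tested, of which Gata6 rose and Pdpn, Rspo1 and Cldn15 fell at day 12, with a median log2 difference of -0.58 against 0.01 over all tested genes. Gata6, a transcription factor of mesothelium and heart, rose from 3.17 ± 0.18 to 5.16 ± 0.54 CPM (adjusted p = 4.27e-08, edgeR). Pdpn, podoplanin, fell from 96.5 ± 3.61 to 58.6 ± 0.85 CPM, and Rspo1, a ligand that amplifies Wnt signals, fell from 43 ± 2.14 to 21.2 ± 2.76 CPM. Cldn15, a tight junction protein, was at 1.27 ± 0.28, 0.350 ± 0.151 and 0.772 ± 0.154 CPM at days 0, 1 and 12, called lower at both times. Under scaling by total counts, Pdpn (-0.53) and Cldn15 (-0.53) were no longer past the fold threshold, and Cldn15 also lost its day 12 call within the larger of the 2 number series that the library titles carry, 11 of 15 libraries (-0.49, adjusted p = 0.0631, edgeR). With total counts Calb2 was called higher (1.13), where TMM scaling gave 0.94 with adjusted p = 0.0715 (edgeR), or 1.19 and 1.11 and a call without day 12 replicate 1 or 4. Lrrn4 was not called (-0.43).

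The 6 listed mesothelial genes with too few counts to be tested were at or near 0. Wt1, the transcription factor of mesothelium, had at most 1 count in any library, Upk1b at most 4, Krt7 at most 5, Upk3b at most 6 and Gpm6a at most 6, and Nkain4 reached 24. Muc16, which encodes the binding partner of mesothelin, was not analysed here. The summed level of the list was 139 to 151 CPM at day 0, 108 to 119 CPM at day 1 and 83.9 to 90.7 CPM at day 12, most of it from Pdpn and Rspo1. Gata6 and Calb2 had their highest mean at day 12.

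Simple epithelial genes were also scarce. Epcam, the epithelial adhesion molecule, had at most 3 counts in any library and Cdh1, E-cadherin, at most 12. Of 20 listed genes, 19 were in the table and 7 were tested, and at day 12 Cldn1, Pkp3 and Elf3 rose and St14 fell. Cldn1, a tight junction claudin, went from 0.911 ± 0.215 at day 0 to 0.535 ± 0.145 at day 1 and 2.92 ± 0.43 CPM at day 12 (log2 fold change 1.68 ± 0.17, adjusted p = 2.61e-09, edgeR). Pkp3, a desmosomal plakophilin, rose from 0.067 ± 0.055 to 0.211 ± 0.123 CPM, and Elf3, an epithelial transcription factor, from 0.168 ± 0.096 to 0.316 ± 0.136 CPM. The call of Pkp3 was lost without day 12 replicate 5 (log2 fold change 1.24) and within the larger library series (0.95), and that of Elf3, with adjusted p = 0.044 (edgeR), was lost in 10 of the 15 fits that left out 1 library. Spint2, Esrp2 and Prss8 were not called at day 12, Esrp2 was called lower (-0.70) without day 12 replicate 1, and Spint2 was called higher (0.60) under scaling by total counts.

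Keratinocyte markers were tested for 7 of 17 genes, of which Krt10 and Lgals7 rose and none fell. Without a filter on low counts 4 were called lower, with the larger library series alone 1, and without single libraries up to 2. Krt10, a keratin of suprabasal epidermis, rose from 0.754 ± 0.402 to 1.49 ± 0.16 CPM, and Lgals7, a galectin of stratified epithelium, from 0.0213 ± 0.0199 to 0.187 ± 0.074 CPM on at most 30 counts. Trp63, which encodes the p63 transcription factor, was at 51.4 ± 2.61 CPM at day 0, fell to 20.4 ± 0.98 at day 1 (log2 fold change -1.33 ± 0.04, adjusted p = 4.2e-18, edgeR) and was at 61 ± 3.39 CPM at day 12. Perp, a p63 and p53 target in desmosomes, was not called in any comparison. The basal keratins Krt5 and Krt14 had at most 11 and 2 counts in any library.

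Other keratins were nearly silent, with 27 of 31 not tested and at most 18 counts in any library among these. Krt10 and Krt79 rose, Krt78 fell (log2 fold change -3.18 ± 0.68) and Krt80 was not called at day 12. Krt78 is the nearest to Krt8 of the genes considered as neighbours on the side of lower coordinates, 42410 bases away. All 13 genes that tie intermediate filaments to junctions were tested, with a median log2 difference of -0.31 at day 12. Pkp3 rose, and Pkp1 (-1.55 ± 0.11), Eppk1 (-2.08 ± 0.22), Evpl (-2.66 ± 0.41) and Dsp (-2.30 ± 0.69) fell at day 12. Plec, which encodes plectin, was the most abundant with Dst, at 311 ± 6.4 and 379 ± 44 CPM at day 0, and had a log2 difference of 0.44 ± 0.04 at day 12, which passed the fold threshold under scaling by total counts (0.63).

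The non-keratin filaments were dominated by Vim, at 3670 ± 165, 3330 ± 117 and 3770 ± 85.6 CPM at days 0, 1 and 12. Nes (nestin, 5.23 ± 0.65 to 8.61 ± 0.99 CPM) and Lmnb1 (lamin B1, 4.48 ± 0.57 to 12.4 ± 1.33 CPM) rose by day 12, Synm (synemin) and Des (desmin) fell, and Vim, Lmna and Lmnb2 were not called, of which Lmna (0.64) and Lmnb2 (0.74) passed under scaling by total counts. Of 6 transcription factors of the epithelial-mesenchymal transition, Twist2 was called higher (4.55 ± 0.40 to 7.11 ± 0.45 CPM) and 46.5% of its exon bases are covered by a gene on the opposite strand. Zeb1, Zeb2 and Snai1 were at 128 ± 2.41, 152 ± 5.88 and 105 ± 4.18 CPM at day 0 and were not called at day 12, and neither were Snai2 and Twist1.

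Relatives of Slpi with a WAP domain moved in different directions. Of 12 listed genes, 4 were tested, Wfdc3 rose from 0.369 ± 0.129 to 2.65 ± 0.24 CPM (log2 fold change 2.86 ± 0.21, adjusted p = 7.89e-12, edgeR), Wfdc1 rose from 1.30 ± 0.13 to 1.97 ± 0.09 CPM and Wfdc12 fell from 3.42 ± 0.32 to 1.41 ± 0.15 CPM. Wfdc2 was not called. The call of Wfdc1 was lost without day 0 replicate 1 (0.54). Bnc2, the paralog of Bnc1, was at 39.3 ± 3.12, 34.7 ± 3.65 and 39.5 ± 1.67 CPM and was not called, and Mslnl, a relative of Msln 282 bases from it, had at most 16 counts in any library.

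Neighbouring genes differed in how far they moved with the members. Lamc3, a laminin chain gene 3599 bases from Aif1l, rose from 0.440 to 2.30 CPM by day 12 (log2 fold change 2.38 ± 0.21, adjusted p = 2.32e-10, edgeR) and fell at day 1 (-1.24 ± 0.26). Nup214, 993 bases from Aif1l on its other side, was not called (0.31). Matn4, a matrilin gene 297 bases from Slpi, fell from 82.7 to 41.2 CPM by day 12 (adjusted p = 3.7e-15, edgeR), and was not called at day 1 (0.13). Narfl, 19397 bases from Msln, was not called (-0.20), and Sh3gl3, 181547 bases from Bnc1, was called lower (-0.80).

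Markers of other cell types that such a culture could hold moved in both directions, and their part in the values of the Msln set was not tested. At day 12, 2 of 4 tested macrophage markers rose (Lyz2, Csf1r) with a summed level of 26.3 to 33.6 CPM at day 0 and 30 to 34.1 CPM at day 12, Ptprc had at most 7 counts in any library, and Cd68 was called lower (-0.59) without day 0 replicate 4. Among 4 tested endothelial markers Pecam1 and Kdr rose and Vwf fell, with sums of 1.01 to 1.31 and 1.07 to 1.79 CPM, and Tek was called lower (-1.40) without day 12 replicate 3. Melanocyte markers gave no call among 2 tested (2.01 to 3 and 1.89 to 3.18 CPM), although Tyr was called lower with DESeq2 (-0.59) and without day 0 replicate 1 or 2 or day 12 replicate 1 (between -0.59 and -0.63). Of 2 tested skeletal muscle markers Des fell (0.944 to 1.7 and 0.185 to 0.692 CPM). Of 5 tested chondrocyte markers Col9a1 rose and Comp, Sox9 and Acan fell, and the sum, mostly Comp, dropped from between 3680 and 4420 CPM to between 1150 and 1250 CPM. Over all lists 88 of 183 different genes were tested, 22 were called higher and 23 lower at day 12.

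Just behind F2rl1 in the order of increases at day 12, counting called genes that averaged 1 CPM or more and whose groups were separate, came Gpr84 (3.40), Adamts16 (3.28) and Vstm2a (3.28), against 3.46 for F2rl1. Gpr84, a receptor for medium-chain fatty acids, shares 39.5% of its exon bases with a gene on the opposite strand. Adamts16, a secreted metalloprotease, went from 0.633 ± 0.222 to 6.08 ± 1.22 CPM, and Vstm2a from 0.466 ± 0.111 to 4.54 ± 0.35 CPM. All 3 overlapped between day 0 and day 1, as Msln, Sprr1a, Aif1l and F2rl1 did.

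By the correlation of log2 CPM over the 15 libraries, the genes most like Msln among 12125 compared were Hpx (r = 0.992), Aqp1 (0.991), Fdps (0.991), Specc1 (0.991) and Prkg2 (0.989). Hpx, the gene of the heme-binding protein hemopexin, was at 64 ± 5.35, 72.8 ± 3.77 and 229 ± 17.3 CPM at days 0, 1 and 12, and Prkg2, a cGMP-dependent kinase, at 3.44 ± 0.38, 3.87 ± 0.66 and 21.3 ± 1.60 CPM. Each of the 5 had a lower mean in both early groups than at day 12. Of the exon bases of Fdps, 26.7% are shared with another gene on its strand. Most like Krt8 were Mdh1 (0.971), Nck2 (0.971), Rhod (0.970), Chst15 (0.970) and Tspan4 (0.969), all highest at day 1 and lowest at day 12. These correlations describe 3 groups of libraries that share controls, depth and culture, so they include the order of the group means. With the group means removed, r ranged from 0.50 (Prkg2) to 0.62 (Fdps) for the genes most like Msln. It ranged from 0.61 (Rhod) to 0.79 (Nck2 and Tspan4) for those most like Krt8, as a description.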

How the data were processed

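RNA of cultured mouse white adipocytes (0, 1 or 12 days at 31°C, 5 libraries each, 15 in all) was sequenced on an Illumina instrument. The authors aligned reads to build mm10 with TopHat2 2.0.13 and Bowtie2 2.2.1 and deposited whole-number counts per gene from HTSeq, whose version and strand setting are not given in the sources used here. They also deposited regularized log values and tables of their own DESeq2 comparisons (mean scaled counts, fold changes, test statistics and p-values), which were not used. Libraries were grouped by their labels.

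From the counts, 14293 of 18804 genes passed filterByExpr (minimum count 10). One quasi-likelihood fit of edgeR 4.0.16 (R 4.3.3) covered all 15 libraries with TMM scaling (factors from 0.946 to 1.09) and no covariate. Standard errors are the log2 fold change over the square root of F. The common coefficient of biological variation was 5.25%. On simulated counts for day 12 against day 0, 196 of 197 changed genes among 14186 were recovered. Recovery was not tested separately for genes as variable between libraries as Bnc1 (50.6% at day 0), F2rl1 (47.1%), Krt18 (46.1%) and Msln (40.3%).

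The members and lists (mesothelial, simple epithelial, keratinocyte and other cell type markers, keratins, cornified envelope, filament linkers, other filaments, paralogs, WAP-domain inhibitors, proteases, epithelial-mesenchymal transcription factors) were chosen with earlier results of these data known. Named from each list were up to 4 called genes per direction and up to 3 not called, by highest mean CPM. Genes below the filter, neighbours, and genes set beside a member were named after their values were seen. The result of 1 list of cell type markers is not reported here. Coordinates, exon lengths and overlaps came from GENCODE annotation of GRCm38, the build that mm10 is. Alternatives were total-count scaling, DESeq2 1.42.0, other filters on low counts, fits without each library, a replicate block, and the library number series of the titles as a factor or with the larger series alone.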

Additional observations from a re-analysis of the deposited data

Results flagged for a closer look

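Among 84 groups of 5 libraries screened (levels of members and summed levels of lists), 6 had a library whose gap to its nearest neighbour was over 0.71 of the range of the group, where chance flags about 1 in 20 groups. In the Msln set these were the low Sprr1a level of day 0 replicate 2 (0.42 CPM) and the high Bnc1 level of day 1 replicate 5 (0.0686 CPM). The other 4 were sums over lists. Among them were 855 CPM for intermediate filament linkers in day 0 replicate 3 and 121 CPM for F3 with the proteases in day 0 replicate 4. The rest were 422 CPM for the transcription factors of the epithelial-mesenchymal transition in day 1 replicate 5, and 1.6 CPM for endothelial markers in day 1 replicate 2.

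Cldn1 fell at day 1 and rose at day 12 against day 0, and the difference between both times was itself called (log2 fold change 2.43, adjusted p = 2.39e-11, edgeR).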

How the results depend on the processing

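Msln, AW551984, Sprr1a, Aif1l, F2rl1 and Bnc1 were called higher at day 12 against day 0 in every alternative that fitted them, with Msln between 5.32 and 5.77. With total-count scaling 2982 genes were called higher at day 12 and the share of calls that were lower went from 55.6% to 35.9% (44.7% to 27.3% between day 1 and day 12), no member was called lower (0), 2 mesothelial markers were higher and 1 lower. The larger library series alone (11 of 15 libraries) gave 2 members lower at day 12, 2 higher and 2 lower at day 1, 2 mesothelial markers higher and 1 simple epithelial gene higher. The series as a factor gave 2 members higher at day 1 and DESeq2 gave 2 lower at day 1. Keeping only genes that averaged 1 CPM or more removed Bnc1, Krt18 and Krt19, gave 0 members lower at day 1, and by fewer genes tested left 13 listed genes higher at day 12, 4 higher and 11 lower at day 1, 11 higher and 9 lower between day 1 and day 12, and 1 simple epithelial gene higher and 0 lower. Without a filter 2 mesothelial markers were higher and 3 simple epithelial genes lower. Leaving out 1 library at a time gave 1 to 2 members lower at day 12, 1 to 3 higher and 1 to 2 lower at day 1, 1 to 2 lower between day 1 and day 12, 1 to 2 mesothelial markers higher, and 1 to 3 simple epithelial genes higher and 1 to 2 lower. The libraries that added a call of Krt8 as lower at day 12 when left out were day 0 replicate 3, day 12 replicate 2 and day 12 replicate 5. Slpi was called lower between day 1 and day 12 without day 1 replicate 1 or day 12 replicate 5.

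Signs turned for genes near 0 at day 12: Ivl to -0.265 (larger series) and between -0.112 and 0.359 without 1 library, Bnc2 between -0.0186 and 0.0535 and Pmel between -0.0607 and 0.204 without 1 library, and Cebpa to 0.124 (total counts). The cause was not tested beyond what the settings themselves change. Libraries with the same replicate number did not vary together (correlations from -0.0255 to 0.0436), so the numbers are only names. A replicate block gave 1851 genes higher and 2326 lower at day 12, 1099 and 1912 at day 1, and 1504 and 1214 between day 1 and day 12, and changed no call of a member. Counts of 9 or fewer per library limit Bnc1 at days 0 and 1, and 6 to 49 counts limit Krt18.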
